A study of Mus musculus with 18 samples.

Results

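Fos, Fosb, Fosl2, Jun, Junb, Egr1, Egr2, Nr4a1, Nr4a3 and Arc are immediate early genes, and their mRNA was followed in RAW264.7 cells exposed for 6 h to the STING agonist cGAMP and to SB24011. RAW264.7 is a mouse macrophage-like line that arose from a tumour induced by Abelson murine leukaemia virus. The 10 genes were taken by symbol from the deposited table of 45777 genes, and all 10 passed the filter on low counts that left 14650 genes for testing. Cells had grown in DMEM with 10% fetal bovine serum and were treated in medium without serum, so the absence of serum is shared by every group. The groups had 3 mRNA sequencing libraries each. cGAMP was given at 20 uM, either alone or together with compound 7a (20 uM) or SB24011 (10 uM in one group and 20 uM in another). The last groups had SB24011 alone at 20 uM and DMSO, the vehicle. cGAMP is the cyclic dinucleotide that binds and activates STING, an adaptor of the cytosolic DNA response. The title of the study presents SB24011 as a compound that blocks binding between STING and TRIM29, and its design text calls 7a a negative analog of it.

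Immediate early genes are transcribed soon after a stimulus without a need for newly made protein, and their mRNAs are mostly short-lived. Fos, Fosb and Fosl2 encode proteins that pair with Jun proteins such as Jun and Junb through a leucine zipper, and the pairs form the transcription factor AP-1. Egr1 and Egr2 encode zinc finger factors that bind GC-rich sites, and Egr2 takes part in macrophage development. Nr4a1 and Nr4a3 encode orphan nuclear receptors, and Nr4a1 restrains inflammatory transcription in mouse macrophages. Arc encodes a capsid-like protein best known from neuronal synapses. Stimulated transcription of these genes runs in textbook accounts through MAP kinases, serum response factor with its Elk partners, and CREB, while AP-1 and Egr sites lie in many macrophage cytokine genes.

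The bases just before the start sites are printed for 5 members with unlike responses, 3 AP-1 genes and 1 gene each of the Egr and Nr4a families, so that they can be set beside the values that follow. RefSeq start sites of GRCm38.p6 matched 8 of the 10 members, which were those other than Egr1 and Arc. Each line gives the 150 bases before a start on the coding strand, 5′ to 3′, and capitals mark TGACG, the core of the cAMP response element bound by CREB and ATF proteins, searched on both strands (CGTCA on the strand printed). The windows are chr12:85473740-85473889 on the plus strand (Fos), chr8:84978749-84978898 on the minus strand (Junb), chr5:32136322-32136471 on the plus strand (Fosl2), chr10:67537719-67537868 on the plus strand (Egr2, 1 of 5 listed starts) and chr15:101266696-101266845 on the plus strand (Nr4a1).
Fos: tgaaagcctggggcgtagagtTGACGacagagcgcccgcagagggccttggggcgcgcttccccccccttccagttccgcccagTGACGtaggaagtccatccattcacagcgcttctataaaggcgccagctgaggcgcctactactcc
Junb: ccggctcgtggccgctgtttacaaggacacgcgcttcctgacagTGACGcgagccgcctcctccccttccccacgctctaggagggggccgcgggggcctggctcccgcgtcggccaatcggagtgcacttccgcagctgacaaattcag
Fosl2: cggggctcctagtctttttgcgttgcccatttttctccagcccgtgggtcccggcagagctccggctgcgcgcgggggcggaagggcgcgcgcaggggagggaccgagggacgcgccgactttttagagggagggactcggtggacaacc
Egr2: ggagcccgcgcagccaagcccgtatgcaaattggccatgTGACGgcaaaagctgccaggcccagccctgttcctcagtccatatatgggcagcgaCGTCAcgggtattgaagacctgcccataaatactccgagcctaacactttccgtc
Nr4a1: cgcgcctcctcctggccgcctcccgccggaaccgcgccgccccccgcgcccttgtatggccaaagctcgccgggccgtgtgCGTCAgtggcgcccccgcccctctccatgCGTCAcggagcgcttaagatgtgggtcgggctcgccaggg

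TGACG was present in a window of 6 of the 8 matched genes, in Fos, Fosb, Junb, Egr2, Nr4a1 and Nr4a3. It stood in 13.3% of all 32851 windows of the same length and in 20.1% of the 13082 windows of tested genes. Egr2 had 5 windows in which to hold it, and not all of them did. The Egr2 window printed is among those with the most matches. The shares count single windows, so a gene with several starts has more chances of a match. Fosl2 and Jun had none. The Egr site GCGNGGGCG was found before Fosl2, Fosb and Nr4a1, against 3.81% of all windows and 6.81% of those of tested genes. Jun carried TGACATCA, the AP-1-like site of its own promoter, which stood in 2.32% of all windows. The TATA box core TATAA stood before Fos and Egr2, against 14.2% of all windows and 7.06% of those of tested genes. The match of Egr2 lies in another of its 5 windows, not in the one printed. The full cAMP response element TGACGTCA, the AP-1 site TGANTCA, the nuclear receptor site AAAGGTCA and the interferon-stimulated response element, each searched on both strands, were in no window of a matched member. TGACGTCA contains TGACG, and the other motifs do not. These matches describe the letters of short windows and say nothing on binding.

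The genes lie apart on the mouse genome (GRCm38, RefSeq positions). Among the AP-1 genes, Fos is at chr12:85473890-85477274, Fosb at chr7:19302696-19310118, Fosl2 at chr5:32136472-32157840, Jun at chr4:95049036-95052222 and Junb at chr8:84976909-84978748. Egr1 is at chr18:34861207-34864956 and Egr2 at chr10:67534469-67542188, where it overlaps Gm32255, a locus that was not tested. The nuclear receptor genes are at chr15:101253902-101274795 (Nr4a1) and chr4:48045078-48086447 (Nr4a3), and Arc is at chr15:74669081-74672570. In the GENCODE M21 annotation the 10 genes were compact. Their median transcript had 3.5 exons over 4741 bp, against 9 exons over 21476 bp for the 11649 tested coding genes, and Jun and Junb had 1 exon. The pentamer ATTTA, the core of AU-rich decay elements, stood at least 3 times in the 3′ untranslated region of 60% of the members and of 33.08% of all tested coding genes. Fosl2 had 8 copies and Arc had 0.

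The libraries held between 45165780 and 65810517 counts, and the 10 genes together took 0.0309% to 0.0820% of them. Levels are given as CPM, counts brought to a common depth with TMM factors, so that 3 counts correspond to 0.0440 to 0.0697 CPM, a limit that covers counting error only. The labels do not say whether the 3 libraries of a group came from separate cultures, so the p-values measure the spread between libraries, which may be technical. In such bulk samples, fewer cells that express a gene and less RNA per cell cannot be told apart. The 8 macrophage markers checked, among them Adgre1, Csf1r and Cd68, were between 54.7 and 3427 CPM in every library. Their sum was 4386 to 5217 CPM with SB24011 alone, below the 5559 to 6601 CPM with DMSO. It was 4287 to 5372 CPM with cGAMP and 20 uM SB24011, against 5104 to 5966 CPM with cGAMP, where the groups overlapped. In each of these comparisons 1 of the 8 (Cd68) was called higher and 2 (Cd14 and Csf1r) lower. Of all tested genes, 44.6% and 42.3% were called in them, so nothing is read from these counts. Of 12 markers of other cell types, 9 were at 0 in every library. The sum of the 12 was 0.711 to 1.35 CPM with cGAMP and 0.138 to 1.01 CPM with SB24011 alone, against 0.157 to 0.352 CPM with DMSO. The endothelial gene Cdh5, the neuronal gene Snap25 and Pecam1 made up the sums of these 12, and the part of neither marker list in the results was tested. Cdh5, at 0.138 to 1.14 CPM, was the 1 marker of the 12 that passed the filter on low counts. It was called higher with cGAMP against DMSO (log2 fold change 2.15), as were 15.6% of all genes. It was also called higher with cGAMP and 20 uM SB24011 against SB24011 alone (1.59), as were 15% of all genes.

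Per unit of length, Junb was the most abundant of the 10 genes, with a mean of 107 FPKM over the 18 libraries (the authors' deposited values). Egr1 averaged 36.9 FPKM, Fos 17.0, Jun 14.7 and Fosl2 13.6. Arc averaged 3.28 FPKM and Egr2 1.21 FPKM. Nr4a1 averaged 0.989 FPKM, Fosb 0.277 FPKM and Nr4a3 0.0957 FPKM. This order is of means over all treatments and differed within them. With SB24011 alone Egr1 averaged 8.64 FPKM, less than Jun (16.5) and Fosl2 (12.4), and with DMSO Fosl2 averaged 20.5 FPKM and Fos 13.8. Nr4a3 rested on 5 to 82 counts per library and Fosb on 35 to 95, so their folds carry wide errors.

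Across treatments the genes moved over unequal ranges. The highest group mean of Arc was 14.2 times its lowest in CPM, that of Egr1 6.58 times, of Nr4a3 4.98 times and of Junb 3.16 times. For Egr2 the ratio was 2.58 and for Fos 2.39. Nr4a1, Fosl2, Fosb and Jun spanned 1.96, 1.93, 1.54 and 1.40 times. Arc, Egr1, Egr2, Fos and Junb had their lowest mean with SB24011 alone. Fosl2, Jun and Nr4a1 had their highest mean with DMSO. Most neighbours in the order of group means overlapped. In Arc, all libraries with SB24011 alone lay below the rest, and those with cGAMP alone or with 7a lay above the rest. In Egr1 and Junb, all libraries that had received cGAMP lay above the DMSO libraries, and these lay above those with SB24011 alone. In Nr4a1 the DMSO libraries lay above all others, and in Nr4a3 below all others. In Egr2 the libraries with SB24011 alone lay below the rest. Fos, Fosl2, Fosb and Jun had no such gap between neighbours.

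**Figure D1:**
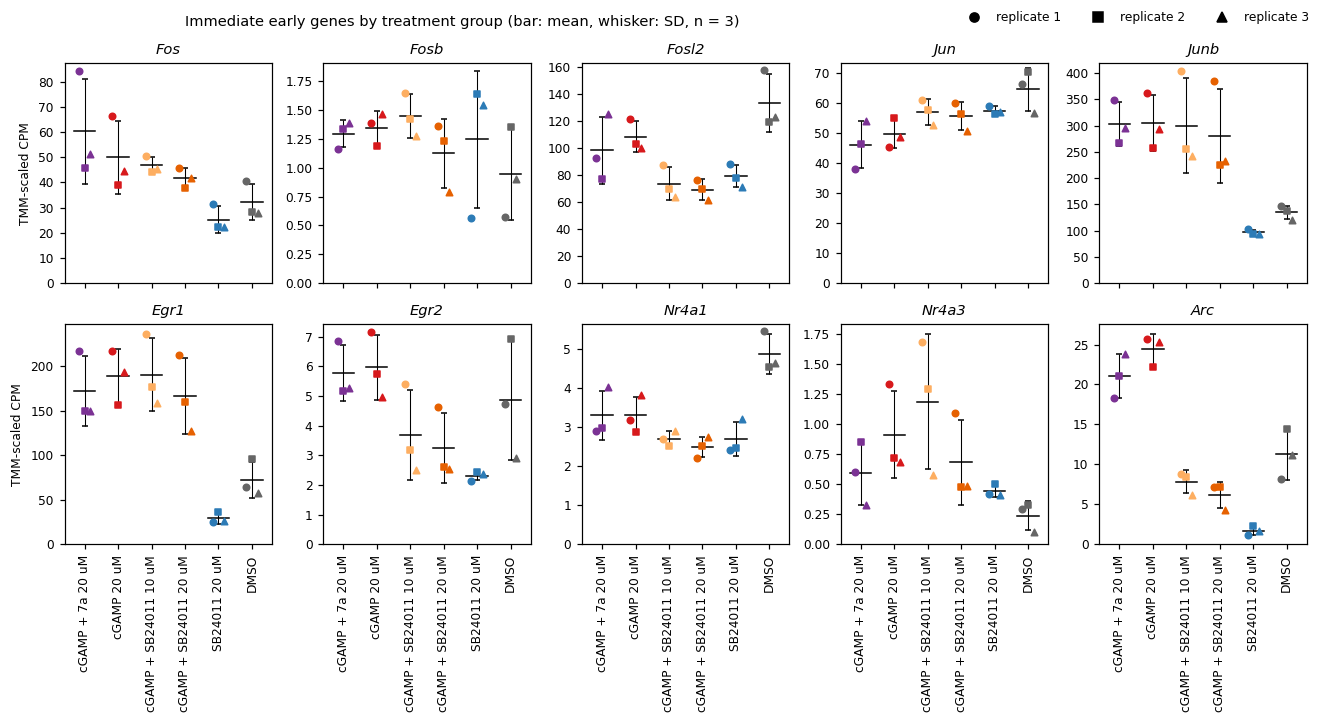
Level of each gene in TMM-scaled CPM (linear axes from 0) by treatment. Points are libraries, with a shape for each replicate number, horizontal bars are group means and whiskers are SD (n = 3). Arc stood at 4.29 to 8.82 CPM in the 6 libraries with cGAMP and SB24011 and at 18.3 to 25.6 CPM in the 6 with cGAMP alone or with 7a.

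SB24011 alone was set against DMSO to see what the compound did without the agonist. Arc, Egr1, Egr2, Nr4a1 and Fosl2 fell, and none of the 10 genes rose. The counts behind this were 5 lower and 0 higher of 10 by the edgeR quasi-likelihood test at an adjusted p under 0.05, where 24.3% of all tested genes were called lower and 20.4% higher (44.6% in all). The total of 5 of 10 is near the share of all genes called in this fit, which had no block for the library set. The median log2 fold change of the 10 was -0.62, against -0.01 over all genes tested. For 7 of the 10 genes no library of one group reached the range of the other, as for 56.6% of all genes.

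Arc changed most. It had 1.21, 2.28 and 1.66 CPM with SB24011 alone, against 8.12, 14.5 and 11.2 CPM with DMSO, and its log2 fold change was -2.72 ± 0.26 (SE), 6.58-fold lower (adjusted p = 6.66e-07). All SB24011 libraries lay below all DMSO libraries. Egr1, a gene induced by many macrophage stimuli, had 25.0, 35.7 and 26.1 CPM with SB24011 alone, against 64.7, 95.4 and 57.1 CPM with DMSO. It fell 2.50-fold (log2 fold change -1.32 ± 0.25, adjusted p = 0.00063), again without overlap. Egr2 had 2.14, 2.43 and 2.37 CPM with SB24011 alone, against 4.71, 6.93 and 2.92 CPM with DMSO, where the spread was wide. Its log2 fold change of -1.08 ± 0.32 passed the test (adjusted p = 0.0112), but without DMSO replicate 2 it was -0.73 with an adjusted p of 0.0797.

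Nr4a1 had 2.41, 2.45 and 3.20 CPM with SB24011 alone, against 5.46, 4.52 and 4.63 CPM with DMSO. It was 1.81-fold lower (log2 fold change -0.86 ± 0.16, adjusted p = 0.000347), and the groups did not overlap. Fosl2, which encodes the Fos family protein Fra-2, had 88.1, 78.2 and 71.6 CPM with SB24011 alone, against 158, 119 and 123 CPM with DMSO. It was 1.69-fold lower (log2 fold change -0.75 ± 0.17, adjusted p = 0.00191), with every SB24011 library below every DMSO library.

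Junb, whose protein can oppose Jun in mouse cells, did not pass the test with a log2 fold change of -0.48 ± 0.22 (adjusted p = 0.0889). Its libraries did not overlap, with 103, 93.0 and 93.7 CPM with SB24011 alone, against 146, 138 and 121 CPM with DMSO. Fos had 31.4, 22.1 and 22.2 CPM with SB24011 alone, against 40.5, 28.4 and 27.9 CPM with DMSO. The first library was the highest in each of these groups, and the log2 fold change was -0.35 ± 0.24 (adjusted p = 0.26). In this comparison deviations from the group means correlated within each library set (r from 0.125 to 0.178). The labels do not state pairing, which was taken from these correlations. With the set as a block in edgeR, Fos (-0.35, adjusted p = 0.0128) and Junb (-0.48, adjusted p = 0.00505) passed. Jun had 57.5 ± 1.44 CPM with SB24011 alone and 64.5 ± 7.11 CPM with DMSO (SD, n = 3 each), with a log2 fold change of -0.17 and a 95% interval of -0.40 to 0.06. Fosb (0.40 ± 0.34) and Nr4a3 (0.85 ± 0.52) had positive values that did not pass.

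cGAMP alone was set against DMSO to measure the response to the STING agonist at 6 h. No earlier time was sampled, so a change that had ended by 6 h would not be seen. Junb, Egr1, Arc and Nr4a3 rose, and Jun and Nr4a1 fell. These were 4 higher and 2 lower of the 10 genes, where 15.6% of all tested genes were called higher and 19.8% lower (35.4% in all). The median log2 fold change of the 10 was 0.57, against -0.06 over all genes. Groups did not overlap for 6 of the 10 genes, and for 47.5% of all. Under scaling by library size alone the median over all genes was -0.19, and higher calls made up 24.9% of all calls, against 44.1% with TMM.

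Among the AP-1 genes, Junb had 362, 257 and 294 CPM with cGAMP, against 146, 138 and 121 CPM with DMSO. It rose 2.26-fold (log2 fold change 1.18 ± 0.22, adjusted p = 0.000719), with all cGAMP libraries above all DMSO libraries. Jun went the other way, with 45.5, 55.1 and 48.8 CPM with cGAMP, against 66.5, 70.5 and 56.7 CPM with DMSO. The log2 fold change of Jun was -0.38 ± 0.11 (adjusted p = 0.0128), and it passed no longer without DMSO replicate 2 (adjusted p = 0.0635), cGAMP replicate 1 (0.0681) or all of the first library set (0.0712). Fos had 66.2, 39.0 and 44.5 CPM with cGAMP, against 40.5, 28.4 and 27.9 CPM with DMSO. Its groups overlapped, and the log2 fold change of 0.63 ± 0.24 missed the threshold (adjusted p = 0.0577), while the fit of DESeq2 gave 0.65 with an adjusted p of 0.0431. Fos gained a call in 4 of 10 other settings, DESeq2 among them, and in 2 of 6 fits with 1 library left out. Fosl2 (-0.30 ± 0.17) and Fosb (0.51 ± 0.35) did not pass. Fosl2 gained a call in 3 of 10 other settings, over which its value ran from -0.43 to -0.25.

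Egr1 had 217, 156 and 194 CPM with cGAMP, against 64.7, 95.4 and 57.1 CPM with DMSO, and rose 2.61-fold (log2 fold change 1.38 ± 0.25, adjusted p = 0.000529). No cGAMP library was as low as a DMSO library. Egr2 had 5.96 ± 1.11 CPM with cGAMP and 4.85 ± 2.01 CPM with DMSO (SD, n = 3 each). The groups overlapped, and the log2 fold change of 0.29 had a 95% interval of -0.36 to 0.94. Arc had 25.6, 22.2 and 25.3 CPM with cGAMP, against 8.12, 14.5 and 11.2 CPM with DMSO, and rose 2.17-fold (log2 fold change 1.12 ± 0.23, adjusted p = 0.00114). Its groups did not overlap.

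The nuclear receptor genes moved in opposite directions. Nr4a3 had 1.33, 0.720 and 0.689 CPM with cGAMP, against 0.294, 0.324 and 0.0980 CPM with DMSO. Its fold change was 3.74 (log2 fold change 1.90 ± 0.50, adjusted p = 0.00678) on 31 to 76 counts with cGAMP and 5 to 22 with DMSO. Without the first library set the log2 fold change of Nr4a3 was 1.68 with an adjusted p of 0.0681. Nr4a1 had 3.18, 2.88 and 3.81 CPM with cGAMP, against 5.46, 4.52 and 4.63 CPM with DMSO. The groups did not overlap, and the log2 fold change was -0.57 ± 0.16 (adjusted p = 0.0109). The call on Nr4a1 was lost without DMSO replicate 1 (adjusted p = 0.0551), without cGAMP replicate 2 (0.054) and without the first library set (0.139).

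**Figure D2:**
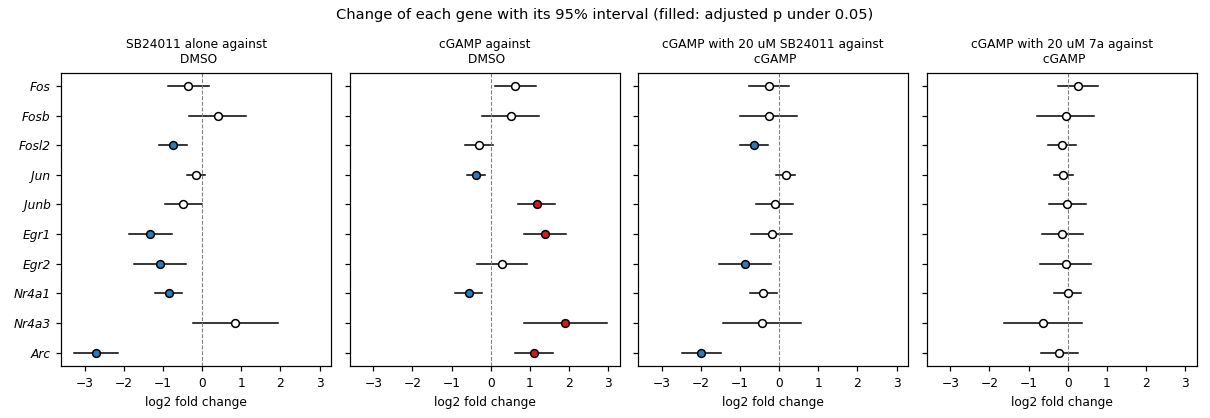
Log2 fold change of each gene (edgeR) in 4 comparisons, named above the panels, with 95% intervals; filled points passed an adjusted p under 0.05 (blue lower, red higher). Arc is at -2.72 with SB24011 alone, 1.12 with cGAMP and -1.99 with 20 uM SB24011 on cGAMP, and no gene passed with 7a.

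SB24011 was added to cGAMP at 10 uM and at 20 uM, and each combination was set against cGAMP alone. Arc and Fosl2 fell at both doses and Egr2 at 20 uM, while Egr1 and Junb kept fold changes near 0. At 10 uM, 2 of the 10 genes were lower and 0 higher, where 19.1% of all genes were called lower and 19.9% higher (39% in all). Groups did not overlap for 2 of the 10 genes (50.5% of all). At 20 uM, 3 were lower and 0 higher, where 20.6% of all genes were called lower and 21.7% higher (42.3% in all). Groups did not overlap for 4 of the 10 (49.5% of all). At both doses the share of the 10 genes called in all was below that of all genes. Both comparisons use the same cGAMP libraries. The median log2 fold change of the 10 genes was -0.06 at 10 uM and -0.34 at 20 uM, against 0.02 over all genes at each dose.

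Arc had 8.82, 8.45 and 6.22 CPM with cGAMP and 10 uM SB24011 and 7.16, 7.11 and 4.29 CPM with cGAMP and 20 uM, against 25.6, 22.2 and 25.3 CPM with cGAMP. All 6 libraries with SB24011 lay below all cGAMP libraries. Those with 10 uM averaged 7.83 CPM, against 11.3 CPM with DMSO. These groups overlapped, and the difference between them was not tested. The fold change of Arc was 3.11-fold lower at 10 uM (log2 fold change -1.64 ± 0.23, adjusted p = 4.7e-05) and 3.97-fold lower at 20 uM (-1.99 ± 0.24, adjusted p = 7.65e-06). Fosl2 had 87.5, 69.8 and 64.1 CPM with cGAMP and 10 uM SB24011 and 76.5, 70.0 and 61.5 CPM with cGAMP and 20 uM, against 122, 103 and 100.3 CPM with cGAMP. No library with SB24011 reached a cGAMP library. Its log2 fold change was -0.56 ± 0.17 at 10 uM (adjusted p = 0.0164) and -0.65 ± 0.17 at 20 uM (adjusted p = 0.00625). At 10 uM the call on Fosl2 was lost without cGAMP replicate 1 (adjusted p = 0.0712), or without replicate 2 (0.0581) or 3 (0.0737) of the combination.

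Egr2 had 5.40, 3.17 and 2.51 CPM with cGAMP and 10 uM SB24011 and 4.62, 2.60 and 2.52 CPM with cGAMP and 20 uM, against 7.16, 5.74 and 4.98 CPM with cGAMP. The first library was highest in each of these groups, and only the 10 uM libraries overlapped those with cGAMP. At 20 uM the log2 fold change was -0.88 ± 0.31 (adjusted p = 0.033). That call was lost in 5 of the alternatives, with adjusted p-values of 0.0512 with no filter on low counts, 0.121 and 0.058 without cGAMP replicate 1 or 2, and 0.111 and 0.128 without replicate 2 or 3 of the combination. At 10 uM the value was -0.69 ± 0.31 (adjusted p = 0.0906).

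Egr1 had 237, 177 and 158 CPM with cGAMP and 10 uM SB24011 and 213, 160 and 127 CPM with cGAMP and 20 uM, against 217, 156 and 194 CPM with cGAMP. The groups overlapped. The log2 fold change of Egr1 was 0.01 at 10 uM, with a 95% interval of -0.51 to 0.53, and -0.18 at 20 uM, with an interval of -0.71 to 0.34. Junb had 403, 254 and 242 CPM with cGAMP and 10 uM SB24011 and 384, 226 and 232 CPM with cGAMP and 20 uM, against 362, 257 and 294 CPM with cGAMP. Its log2 fold change was -0.02 (interval -0.49 to 0.44) at 10 uM and -0.12 (-0.58 to 0.35) at 20 uM. The first library of Junb stood above the other two in each of these groups, and without the first library set the value at 20 uM was -0.27 with an adjusted p of 0.025. Nr4a1 did not overlap at 20 uM, with 2.21, 2.51 and 2.73 CPM with the combination, against 3.18, 2.88 and 3.81 CPM with cGAMP, and missed the threshold (log2 fold change -0.40 ± 0.17, adjusted p = 0.0611). Fos (-0.26), Jun (0.16), Fosb (-0.27) and Nr4a3 (-0.44) did not pass at 20 uM.

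The 20 uM combination was also set against the 10 uM combination. At these doses 0 of the 10 genes and 0 of all 14650 genes (0%) passed edgeR's test. At an unadjusted p under 0.05 there were 404 genes and 0 members, and DESeq2 called 0 genes (427 at an unadjusted p under 0.05). Groups did not overlap for 0 of the 10 genes, and for 7.04% of all. The difference for Arc was -0.35 ± 0.24 on the log2 scale, with a 95% interval of -0.86 to 0.16, and that for Fosl2 was -0.09, with an interval of -0.45 to 0.27.

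Compound 7a, given at 20 uM with cGAMP, was set against cGAMP alone and then against SB24011 at the same dose, which was the 1 pair of compounds at a matched dose. Against cGAMP alone, 0 of the 10 genes and 0 of all genes (0%) passed edgeR's test with 7a. At an unadjusted p under 0.05 there were 1208 genes and 0 members. DESeq2 called 38 genes, the fit with the library set as a block called 8, and leaving out 7a replicate 3 gave 48, none of them a member. Arc had 18.3, 21.0 and 23.9 CPM with cGAMP and 7a, against 25.6, 22.2 and 25.3 CPM with cGAMP, and the groups overlapped, as they did for all 10 genes (12.7% of all genes did not overlap). Its log2 fold change was -0.21 ± 0.22, with a 95% interval of -0.68 to 0.26. The values of the others ran from -0.64 for Nr4a3 (interval -1.63 to 0.35) to 0.27 for Fos (-0.25 to 0.78). Such intervals bound a difference and do not show that 7a left the genes as they were.

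Between the compounds, Arc, Egr2 and Fosl2 were lower with SB24011 than with 7a, both at 20 uM on cGAMP. These were 3 lower and 0 higher of 10 genes, where 16.7% of all genes were called lower and 19.7% higher (36.4% in all). That total of 3 is no more than the share of all genes called. Groups did not overlap for 4 of the 10 (42.9% of all). Arc had 7.16, 7.11 and 4.29 CPM with SB24011, against 18.3, 21.0 and 23.9 CPM with 7a. It was 3.43-fold lower (log2 fold change -1.78 ± 0.24, adjusted p = 3.06e-05) with no overlap. Fosl2 had 76.5, 70.0 and 61.5 CPM with SB24011, against 92.8, 77.0 and 126 CPM with 7a. The groups nearly met, and the log2 fold change was -0.51 ± 0.17 (adjusted p = 0.028). Egr2 had 4.62, 2.60 and 2.52 CPM with SB24011, against 6.87, 5.18 and 5.27 CPM with 7a, and its log2 fold change was -0.83 ± 0.31 (adjusted p = 0.0482).

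The calls on Egr2 and Fosl2 against 7a did not hold in several alternatives. With each library left out in turn, the log2 fold change was -1.17 to -0.68 for Egr2 and -0.66 to -0.29 for Fosl2. The call on Egr2 was lost in 7 alternatives, with adjusted p-values of 0.152 and 0.166 without replicate 2 or 3 of the SB24011 group, of 0.148, 0.0652 and 0.0726 without replicate 1, 2 or 3 of the 7a group, of 0.072 with no filter on low counts, and of 0.0519 by limma on log2(FPKM + 1). Fosl2 had an adjusted p of 0.174 without replicate 3 of the 7a group, its highest library, of 0.0628 and 0.104 without replicate 2 or 3 of the SB24011 group, and of 0.0599 when only these groups entered the fit. Without the first library set 5 of the 10 genes were lower, in a fit that called 4809 of all genes (5336 with all libraries), among them Fos (-0.28, adjusted p = 0.0199) and Junb (-0.30, adjusted p = 0.0171).

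Egr1 and Junb were not separated by the compounds. Egr1 had 213, 160 and 127 CPM with SB24011, against 218, 149 and 149 CPM with 7a, a log2 fold change of -0.05 with a 95% interval of -0.57 to 0.48. Junb differed by -0.11, with an interval of -0.58 to 0.35. Fos had 45.7, 37.6 and 41.8 CPM with SB24011, against 84.2, 45.6 and 51.2 CPM with 7a, and its difference of -0.53 ± 0.24 did not pass (adjusted p = 0.105). Nr4a1 (-0.41 ± 0.17, adjusted p = 0.0649) and Jun (0.27 ± 0.11, adjusted p = 0.0657) missed the threshold as well.

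cGAMP with 20 uM SB24011 was set against SB24011 alone to follow the agonist's effect in the presence of the compound. Egr1, Arc, Junb and Fos rose, and none of the 10 genes fell. They were 4 higher of 10, where 15% of all genes were called higher and 12.4% lower (27.4% in all). Groups did not overlap for 5 of the 10 (40.2% of all). Egr1 had 213, 160 and 127 CPM with the combination, against 25.0, 35.7 and 26.1 CPM with SB24011 alone, and rose 5.75-fold (log2 fold change 2.52 ± 0.26, adjusted p = 4.1e-06). Arc had 7.16, 7.11 and 4.29 CPM with the combination, against 1.21, 2.28 and 1.66 CPM with SB24011 alone, and rose 3.59-fold (1.85 ± 0.27, adjusted p = 7.09e-05). Neither gene overlapped between the groups.

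Junb had 384, 226 and 232 CPM with the combination, against 103, 93.0 and 93.7 CPM with SB24011 alone, and rose 2.91-fold (log2 fold change 1.54 ± 0.22, adjusted p = 9.95e-05). Fos had 45.7, 37.6 and 41.8 CPM with the combination, against 31.4, 22.1 and 22.2 CPM with SB24011 alone. The groups of Fos did not overlap, and its log2 fold change was 0.72 ± 0.24 (adjusted p = 0.0404). That call was lost in 9 alternatives, among them scaling by library size alone (0.55, adjusted p = 0.0851), while the value stayed between 0.53 and 0.91 in every alternative. Deviations correlated within each library set here too (r from 0.105 to 0.176), which was taken as pairing. With the set as a block in edgeR, Fos had 0.74 with an adjusted p of 5.89e-05. Under scaling by library size alone the median over all genes was -0.18, against -0.01 with TMM. Higher calls then made up 24.2% of all calls, against 54.7% with TMM. Egr2 did not overlap either but missed the test (0.48 ± 0.32, adjusted p = 0.313).

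The interaction asks whether 20 uM SB24011 changed a gene differently with cGAMP than without it. By edgeR's test 0 of the 10 genes passed, and 54 of all 14650 genes did (0.369%). At an unadjusted p under 0.05 there were 2 members, and DESeq2 called 171 genes and 0 members. Egr1 had the larger of these values. SB24011 moved it by -0.18 on the log2 scale with cGAMP and by -1.32 without, a difference of 1.14 ± 0.35 with a 95% interval of 0.39 to 1.89, an unadjusted p of 0.0057 and an adjusted p of 0.263. For Jun the difference was 0.33 ± 0.16 (adjusted p = 0.554). Arc moved by -1.99 with cGAMP and by -2.72 without, a difference of 0.73 ± 0.35 (interval -0.01 to 1.47, adjusted p = 0.566). For Fosl2 the difference was 0.11, with an interval of -0.40 to 0.61. Nr4a3, on few counts, had the largest difference in absolute size. It was -1.29 ± 0.70, with an interval of -2.76 to 0.19 and an adjusted p of 0.637.

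**Figure D3:**
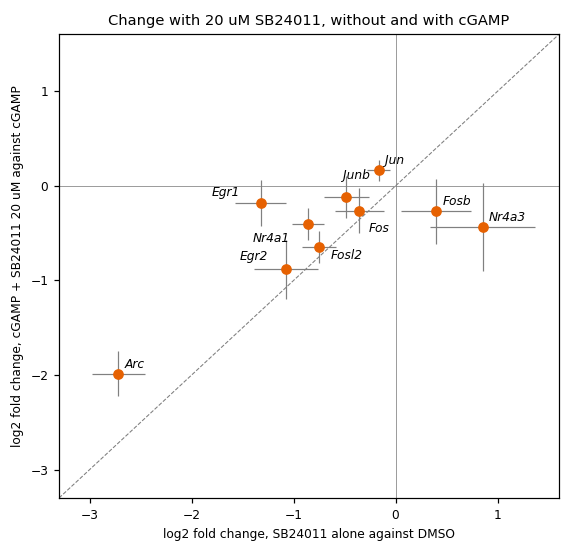
Log2 fold change with 20 uM SB24011 on cGAMP (against cGAMP) plotted against that of SB24011 alone (against DMSO), with bars of 1 SE and a dashed line of equal change. Arc (-1.99 with cGAMP, -2.72 without) is at the lower left, and Egr1 (-0.18 with cGAMP, -1.32 without) is the gene farthest above the line. Nr4a3 (-0.44 with cGAMP, 0.85 without), on few counts, is the gene farthest below it. None of these differences passed the interaction test.

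Other genes of the same families were counted from lists, to be read against the shares of all tested genes that were called, which were 20.4% higher and 24.3% lower with SB24011 alone, 15.6% and 19.8% with cGAMP, and 21.7% and 20.6% with 20 uM SB24011 on cGAMP. Of the 12 other AP-1 family genes 10 were tested. With SB24011 alone against DMSO 5 rose and 0 fell, with cGAMP against DMSO 5 rose and 1 fell, and with 20 uM SB24011 on cGAMP 3 rose and 0 fell. The median log2 fold change of the list was 0.15, 0.45 and 0.11 in these comparisons, against -0.01, -0.06 and 0.02 over all tested genes. Atf3, a stress-induced repressor that dimerizes with AP-1 proteins, averaged 174 CPM with SB24011 alone, against 47.5 CPM with DMSO (log2 fold change 1.87 ± 0.24). On cGAMP it averaged 286 CPM with 20 uM SB24011, against 92.2 CPM without (1.63 ± 0.23). Batf2 rose by 4.26 ± 0.18 on the log2 scale with cGAMP and by 1.19 ± 0.18 with SB24011 alone. Mafk (1.25) and Fosl1 (1.06) rose with cGAMP. In the same libraries Atf3 was higher with SB24011 where Fosl2 was lower.

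Of the 5 other Egr, Nr4a and Nab genes 4 were tested. Egr3 fell with SB24011 alone to 7.43 CPM, against 24.0 CPM with DMSO (log2 fold change -1.70 ± 0.35), and with 20 uM SB24011 on cGAMP to 21.5 CPM, against 42.5 CPM with cGAMP (-0.99 ± 0.34). Nab1 and Nab2 encode corepressors of Egr proteins. Both rose with cGAMP, Nab2 by 1.16 ± 0.17 and Nab1 by 0.45 ± 0.09, and Nab1 fell with 20 uM SB24011 on cGAMP by 0.33 ± 0.09 on the log2 scale. In this list 0 rose and 2 fell with SB24011 alone, 2 rose and 0 fell with cGAMP, and 0 rose and 2 fell with 20 uM SB24011 on cGAMP. The medians were -0.24, 0.63 and -0.35, and nothing is read from 2 calls among 4 genes where 44.6%, 35.4% and 42.3% of all genes were called in these comparisons. Against 7a, Nr4a2 was higher with SB24011 (0.50 ± 0.15).

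All 23 transcription factors and MAP kinases upstream of immediate early genes were tested. With SB24011 alone 3 rose and 7 fell, with cGAMP 6 rose and 5 fell, and with 20 uM SB24011 on cGAMP 3 rose and 8 fell. These totals of 10, 11 and 11 of 23 are near the 44.6%, 35.4% and 42.3% of all genes called, and the medians were -0.08, 0.00 and -0.11, so nothing is read from the list as a whole. Srf, the serum response factor, averaged 44.9 CPM with SB24011 alone, against 63.6 CPM with DMSO (log2 fold change -0.50 ± 0.07), and 39.4 CPM with 20 uM SB24011 on cGAMP, against 54.1 CPM with cGAMP (-0.46 ± 0.08). Elk3, a partner of serum response factor, fell in both comparisons (-0.63 ± 0.12 and -0.48 ± 0.12). With cGAMP, Crem of the CREB family rose by 1.20 ± 0.09 and Map3k8, a kinase upstream of ERK, by 0.76 ± 0.14. Map2k6, a kinase that activates p38, averaged 0.666 CPM with cGAMP, against 1.76 CPM with DMSO (-1.40 ± 0.41).

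Of the 31 other immediate early genes 30 were tested. With cGAMP 17 rose and 2 fell, with Pim1 (2.19), Rgs2 (2.11) and Csrnp1 (1.64) among them on the log2 scale. That is 17 higher calls among 30 genes where 15.6% of all genes were called higher, and the median was 0.75. With SB24011 alone 10 rose and 9 fell (44.6% of all genes called, median 0.01), and with 20 uM SB24011 on cGAMP 9 rose and 4 fell (42.3% called, median 0.06). The 13 calls in the last comparison are near the share of all genes. Myc averaged 10.7 CPM with SB24011 alone, against 1.83 CPM with DMSO (2.55 ± 0.30), in the libraries in which Arc and Egr1 were lowest. Of 15 target genes of AP-1 or Egr 11 were tested, and 6 rose and 0 fell with cGAMP (15.6% of all genes higher and 19.8% lower, median of the list 0.76). Among these Plau, the urokinase gene, averaged 820.3 CPM with cGAMP, against 312 CPM with DMSO (1.40 ± 0.32). With 20 uM SB24011 on cGAMP 1 target rose and 2 fell, no more than the 42.3% of all genes called, and Plau averaged 447 CPM, against 820.3 CPM with cGAMP (-0.88 ± 0.31). With 7a on cGAMP, 0 genes of these lists passed, and 0 of all 14650 tested genes (0%) did.

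**Figure D4:**
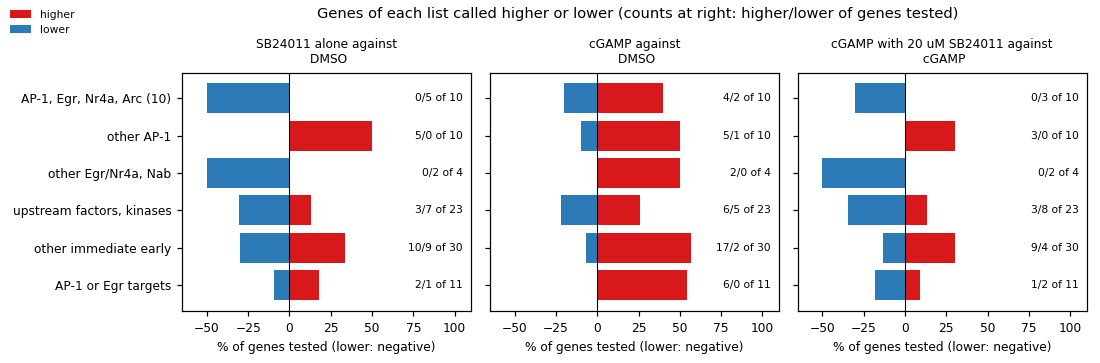
Share of the tested genes of each list called higher (to the right) or lower (to the left) in 3 comparisons, as % of the genes tested, with the counts at the right of each panel. The 10 genes had 5 lower and 0 higher with SB24011 alone, 4 higher and 2 lower with cGAMP, and 3 lower and 0 higher with 20 uM SB24011 on cGAMP. Of all tested genes, 44.6%, 35.4% and 42.3% were called in these comparisons, shares that are not drawn.

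Over the 18 libraries the 10 genes did not share 1 pattern. Junb and Egr1 followed each other most closely, with a Pearson r of 0.96 of log2 CPM. Fos followed Junb (0.88), Egr2 followed Arc (0.83), and Fosl2 followed Nr4a1 (0.79). Jun ran against Fos (-0.63). These coefficients describe 18 libraries in 6 treatments that share depth and library sets, and no test was made of them.

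By the same measure, the tested genes most like Junb were Cybb (0.98), Csrnp1 (0.98) and Dcp2 (0.98), and those most like Egr1 were Frmd4a, Itpk1 and Pla2g4c (0.96 each). Fosl2 was nearest to Nfatc1 (0.97), Slc25a1 (0.94) and Csf1r (0.94), the last encoding the CSF1 receptor. Arc was nearest to Tor1b, Prrg4 and Tmem50b (0.97 each). Nr4a1 was nearest to Paics (0.95), Stk38l (0.95) and Tyms (0.94), and Egr2 to Mapk11, Erlin2 and Gng12 (0.91 each). Fos was nearest to Fgd2 (0.94), Usp21 (0.93) and Ptpro (0.92). Jun had weaker likest genes, with Slc1a5 at 0.87, Tssc4 at 0.83 and Fndc3b at 0.82. Fosb, with few counts, reached 0.70 with Ppp4r1, 0.68 with Snora64 and 0.67 with Enthd1.

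The first library of each group stood apart for some genes. Fos and Junb were highest in it in 6 of 6 groups and Fosl2 in 5 of 6, while Nr4a1 was highest in the last library in 5 of 6. These sets run across treatments, and each holds 1 library of every group. The calls on Arc, Egr1 and Junb named above held without the first set, and those on Jun, Nr4a1 and Nr4a3 with cGAMP did not.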

How the data were processed

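Libraries came from a stranded mRNA kit, per the labels' protocols. The submitters' processing notes list StringTie 2.1.3b, Bowtie2 2.3.4.1, HISAT2 2.1.0 and Trimmomatic 0.38, with the build GRCm38 (mm10). What each did, and whether counting used strand, is not given in the sources used here. Per the file headers, the authors deposited a raw read count per gene and library, and an FPKM value scaled by the authors for length and depth. The TPM columns and the authors' normalized table were not used here.

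Counts of all genes were fitted with edgeR 4.0.16 in R 4.3.3: filterByExpr, TMM, and 1 robust quasi-likelihood model of 18 libraries in 6 groups (12 residual degrees of freedom). The two-sided F-tests were adjusted by Benjamini-Hochberg over 14650 genes and called at an adjusted p under 0.05. The SE comes from the F statistic, and intervals are at 95%. The code was tested on simulated counts that had no library-set effect, so that test does not bear on the fits with the set as a block. DESeq2 1.42.0, limma 3.58.1 on log2(FPKM + 1) and log2(FPKM + 0.1), other filters and scalings, and leaving out libraries were alternatives. Likeness is the Pearson r of log2 CPM (prior count 2), given for members with a mean of at least 1 CPM, with the 3 genes of highest r and no clone names. Of each other list, up to 6 called genes were eligible to be named, by absolute fold change. Members, lists and tests were chosen with earlier results of these data known. Mkl1 and Mkl2 were read as Mrtfa and Mrtfb.

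Library numbers in the labels form 3 sets, each with 1 library of every group. Deviations from the group means correlated within every set for SB24011 alone against DMSO (r from 0.125 to 0.178), for 7a on cGAMP (0.137 to 0.183) and for cGAMP with 20 uM SB24011 against SB24011 alone (0.105 to 0.176), which is taken as pairing there. Other comparisons had a pair at or below the limit of 0.1.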

Additional observations from a re-analysis of the deposited data

How the results depend on the processing

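Of 1491 fold changes of the 10 genes under alternatives, 0 reversed a called sign, 36 lost a call and 33 gained one. Of the 23 calls, 14 were never lost: those on Arc and Egr1, on Junb in both cGAMP comparisons, on Nr4a1 with SB24011 alone, and on Fosl2 with SB24011 alone and with 20 uM on cGAMP. The cause of the other changes was not tested. For SB24011 alone against DMSO, 5 to 7 members were called over the 10 other settings (5 in the main fit). Leaving out each library in turn gave 4 to 5 there. Leaving out each library in turn gave 1 to 3 members for 10 uM SB24011 on cGAMP (2 with all libraries), 1 to 3 for SB24011 against 7a (3), 0 to 48 genes for 7a on cGAMP (0) and 23 to 67 genes for the interaction (54). Against 7a (5336 genes), 5 members were called with the replicate block (6683 genes), with limma on log2(FPKM + 0.1) (5025) and without the first library set (4809), an alternative chosen after seeing the data. For 7a on cGAMP, the replicate block called 8 genes and DESeq2 38. For cGAMP with 20 uM SB24011 against SB24011 alone (4008 genes), scaling by library size alone called 6281 and limma on log2(FPKM + 1) called 6082. The interaction called 33 genes under library size alone, 321 with the replicate block, 29 with only its groups in the fit, 30 with limma on log2(FPKM + 0.1), 171 with DESeq2 and 23 without the first set.

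Each of the 18 libraries correlated best with one of its own set (median r 0.122 over 45 same-set pairs and -0.0613 over 90 others), a hint from the data and not from the design. Where the numbers are not shown to pair the samples, the replicate block added calls on Fos with cGAMP (0.62, adjusted p = 0.000234), Egr2 at 10 uM SB24011 (-0.72, adjusted p = 0.0221), Nr4a1 at 20 uM (-0.40, adjusted p = 0.0208), and Fos (-0.49, adjusted p = 0.0015) and Nr4a1 (-0.40, adjusted p = 0.0225) against 7a. Scaling by library size alone gave a share of higher calls of 57.4% for SB24011 alone and 30.3% for the interaction, against 45.7% and 66.7% with TMM. Low counts limit Nr4a3 and Fosb most.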
